A study of Mus musculus with 60 samples.

Results

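Mouse embryonic stem (ES) cells that carry both an Lnc956 knockout and a P53 knockdown, called combined-loss cells here, were followed through 3 h of etoposide. The comparison rests on 4 RNA-seq libraries of 60 in the series, 2 of cells treated for 3 h and 2 of cells at 0 h, taken from columns whose own name does not give the genotype and which were matched to it as the line left over. The 3 h libraries are both labelled 1 uM etoposide, and the 0 h libraries received none. The same times were set against cells with a P53 knockdown alone (2 libraries at 3 h with 1 uM, 2 at 0 h) and against cells with an Lnc956 knockout alone (2 at 3 h, of which replicate 1 is labelled 1 uM and replicate 2 is labelled 10 uM, and 2 at 0 h). Combined-loss cells were also sampled at 6 h (both libraries 1 uM) and 9 h (replicate 1 at 1 uM, replicate 2 labelled 10 uM). The medium of every line was DMEM/F12 with LIF (leukemia inhibitory factor) and 20% KOSR, a serum replacement. The labels name no clone, knockdown vector or efficiency. Nothing in them says whether replicate libraries came from different cultures, and p-values therefore reflect library-to-library spread that may be technical. The comparison asks how the transcriptome answers DNA damage when the noncoding RNA is missing and P53 is reduced.

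Etoposide traps topoisomerase II on cut DNA and so leaves breaks in both strands. Breaks activate the kinases ATM and ATR, which stabilise P53, a transcription factor that switches on genes of growth arrest, cell death, repair and its own feedback. In ES cells P53 activation is also known to accompany the loss of pluripotency gene expression. Lnc956 is a long noncoding RNA that the series studies together with P53 and the pluripotency factor KLF4.

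Trp53, the knocked-down gene, had 52.5 and 60.0 FPKM (fragments mapped to a gene, scaled by its transcript length and by library size) in the combined-loss libraries at 3 h, against 57.6 and 56.3 FPKM at 0 h. Trp53 in P53 knockdown cells had 112 and 94.6 FPKM at 3 h, against 109 and 104 FPKM at 0 h. Trp53 in Lnc956 knockout cells had 293 and 280 FPKM at 3 h, against 301 and 287 FPKM at 0 h. Every combined-loss library thus lay below every P53 knockdown library, and Trp53 mRNA remained in both. For any difference between these lines, the loss of Lnc956 and the lower Trp53 level cannot be told apart. Nor can either be told apart from other differences between the lines, such as clone, culture or library preparation. Lnc956 itself was not identified by name in the expression table. Of the 6 ES cell markers the summed level was 2066 and 2320 FPKM in combined-loss cells at 3 h, against 2240 and 2063 FPKM at 0 h. The 10 fibroblast or feeder markers summed to 531 and 558 FPKM at 3 h, against 552 and 533 FPKM at 0 h. Vim supplied most of this, with 374 and 407 FPKM at 3 h, against 383 and 362 FPKM at 0 h. Col1a1, Col1a2, Col3a1, Lum and Thy1 were lower at 3 h without overlap (13.4% of all genes were), and none of the 10 was higher without overlap. The 3 mesoderm markers summed to 0.0326 and 0.167 FPKM at 3 h, against 0.0687 and 0.179 FPKM at 0 h, with Mesp1 listed at 0 in all 4 libraries. In P53 knockdown cells the same fibroblast markers summed to 794 and 499 FPKM at 3 h, against 779 and 538 FPKM at 0 h, so these replicates differ at both times, and the part of this in the comparisons between lines was not tested. The library depth is unknown.

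No gene of 14223 tested passed an adjusted p of 0.05 between 3 h and 0 h in combined-loss cells (0% called, limma with Benjamini-Hochberg adjustment). At an unadjusted p below 0.05 there were 454 genes (3.19%), 270 with higher values at 3 h (1.9%) and 184 with lower values (1.29%). The libraries did not overlap between times for 2548 genes higher at 3 h (17.9%) and 1900 lower (13.4%). Within the line the libraries of different times were as alike as replicates: Pearson's r across genes, as a description, was 0.992 between the 3 h replicates, 0.993 between the 0 h replicates and from 0.991 to 0.994 between times. The same model, with the same number of libraries, called 737 genes (5.18%) in P53 knockdown cells, 406 higher at 3 h (2.85%) and 331 lower (2.33%), and 64 genes (0.45%) in Lnc956 knockout cells, 49 higher (0.345%) and 15 lower (0.105%). The SD of the log2 change over genes was 0.177 in combined-loss cells, 0.300 in P53 knockdown cells and 0.245 in Lnc956 knockout cells. Folds here are differences of log2(FPKM + 1), which understate the change of low genes.

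The absence of calls can be bounded. Of 8368 genes with a mean of at least 5 FPKM, 8214 (98.2%) had a 95% interval of the 3 h change that lay wholly within 2-fold in either direction. The median half-width of the interval over all genes was 0.34 on the log2 scale. These intervals are for single genes and are not adjusted for the number of genes tested. Changes wider than this half-width could therefore stay uncalled with 2 libraries per time. For 17 genes the change reached 1 on the log2 scale in either direction, and none of them was called.

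**Figure D1:**
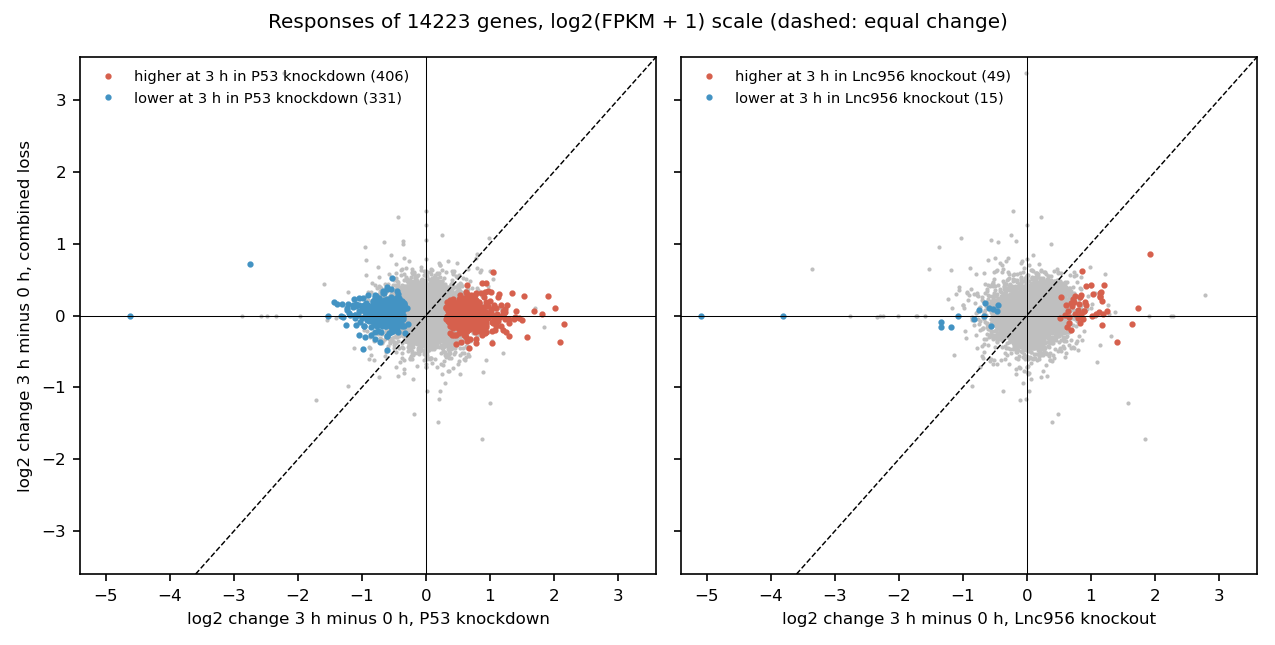
Log2 change from 0 h to 3 h of 14223 genes in combined-loss cells (vertical axis) against the change in P53 knockdown cells (left) or Lnc956 knockout cells (right); coloured points are genes called in the line on the horizontal axis and the dashed line marks equal change. The 406 genes higher and 331 genes lower at 3 h in P53 knockdown cells have medians of 0.00 and 0.04 in combined-loss cells.

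P53 target genes were near their 0 h level in combined-loss cells. Of 50 targets tested in 4 lists, none was called, none had an unadjusted p below 0.05 upward (1.9% of all genes did) and 2 did downward (1.29% of all genes), with a median log2 change of 0.03 against 0.02 over all genes. The libraries did not overlap for 8 with higher and 10 with lower values at 3 h, against 17.9% and 13.4% of all genes. The 95% interval lay within 1.5-fold for 45 of the 50 and within 2-fold for all 50. In P53 knockdown cells 19 of these 50 rose and none fell, with a median of 0.40, where 2.85% of all genes rose. In Lnc956 knockout cells 3 rose (Btg2, Cdkn1a and Bbc3) with a median of 0.12, where 0.345% of all genes rose. The difference between the combined-loss and the P53 knockdown response passed the test for 9 of the 50, all lower in combined-loss cells (0.766% of all genes were called lower).

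Of the 13 growth arrest targets, 4 differed in response, namely Btg2, Cdkn1a, Plk2 and Cdc42bpg. Btg2, which restrains the cell cycle and assists mRNA deadenylation, had 12.8 and 13.1 FPKM in combined-loss cells at 3 h, against 13.6 and 10.5 FPKM at 0 h. Btg2 in P53 knockdown cells had 92.3 and 161 FPKM at 3 h, against 25.7 and 33.8 FPKM at 0 h. The combined-loss libraries of both times overlapped, while the P53 knockdown libraries did not. The combined-loss change was 0.11 on the log2 scale (95% interval from -0.25 to 0.47), and the difference from P53 knockdown was -1.91 ± 0.24 (SE, limma adjusted p = 0.00024). Cdkn1a, which encodes the cyclin-dependent kinase inhibitor p21, had 108 and 112 FPKM at 3 h in combined-loss cells, against 129 and 117 FPKM at 0 h. Cdkn1a in P53 knockdown cells had 165 and 180 FPKM at 3 h, against 102 and 78.4 FPKM at 0 h. Both 3 h libraries of combined-loss cells lay below both 0 h libraries, though the change of -0.16 (from -0.38 to 0.06) did not pass the test. The response differed by -1.10 ± 0.15 (limma adjusted p = 0.00033). Plk2, a Polo-like kinase, differed by -0.83 (limma adjusted p = 0.026), with 67.5 and 65.6 FPKM in combined-loss cells at 3 h, against 73.6 and 70.0 FPKM at 0 h.

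Among the feedback targets, Mdm2, the ubiquitin ligase that degrades P53, had 67.3 and 66.7 FPKM in combined-loss cells at 3 h, against 63.3 and 66.8 FPKM at 0 h. Mdm2 in P53 knockdown cells had 118 and 162 FPKM at 3 h, against 78.1 and 82.8 FPKM at 0 h. The combined-loss change was 0.04 (95% interval from -0.17 to 0.26), and it differed from the P53 knockdown change by -0.73 (limma adjusted p = 0.011). Ppm1d, a phosphatase that removes damage-dependent phosphates, had 12.3 and 12.8 FPKM at 3 h, against 13.1 and 13.5 FPKM at 0 h, and differed by -0.70 (limma adjusted p = 0.017). Ccng1, a cyclin G gene, had 124 and 129 FPKM at 3 h in combined-loss cells, against 101 and 143 FPKM at 0 h. Its 0 h libraries spanned the 3 h values, and the difference from P53 knockdown of -0.76 did not pass the test (limma adjusted p = 0.25).

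Of the 13 death targets tested, 8 rose in P53 knockdown cells (2.85% of all genes did), and in combined-loss cells the changes ran from -0.15 to 0.15. Pidd1, which assembles a caspase-2 platform, had 5.03 and 4.64 FPKM in combined-loss cells at 3 h, against 5.21 and 4.13 FPKM at 0 h. Pidd1 in P53 knockdown cells had 13.96 and 13.1 FPKM at 3 h, against 6.85 and 5.59 FPKM at 0 h, and the responses differed by -0.97 (limma adjusted p = 0.0062). Bbc3, the death activator PUMA, had 13.2 and 13.6 FPKM at 3 h in combined-loss cells, against 12.8 and 11.3 FPKM at 0 h. Its difference from P53 knockdown was -0.92, short of the threshold (limma adjusted p = 0.066). Tnfrsf10b, a death receptor for TRAIL, differed by -0.76 (limma adjusted p = 0.021), with 33.1 and 28.8 FPKM at 3 h in combined-loss cells, against 35.9 and 32.9 FPKM at 0 h.

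In the metabolism and repair list of 18 genes the median change was 0.03 in combined-loss cells and 0.35 in P53 knockdown cells. Trp73, a P53 relative, had 3.91 and 3.53 FPKM in combined-loss cells at 3 h, against 3.40 and 3.10 FPKM at 0 h. Trp73 in P53 knockdown cells had 2.87 and 2.98 FPKM at 3 h, against 0.585 and 0.904 FPKM at 0 h. At 0 h both combined-loss libraries lay above both P53 knockdown libraries, and the responses differed by -1.02 (limma adjusted p = 0.019). The lowest values of the whole target set were Eda2r, a receptor of the TNF family, at -0.51 with 18.6 and 15.3 FPKM at 3 h against 23.0 and 26.0 FPKM at 0 h, and Ddb2, a damage sensor of nucleotide excision repair, at -0.38. Both missed the adjusted threshold (limma adjusted p = 1 for each).

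**Figure D2:**
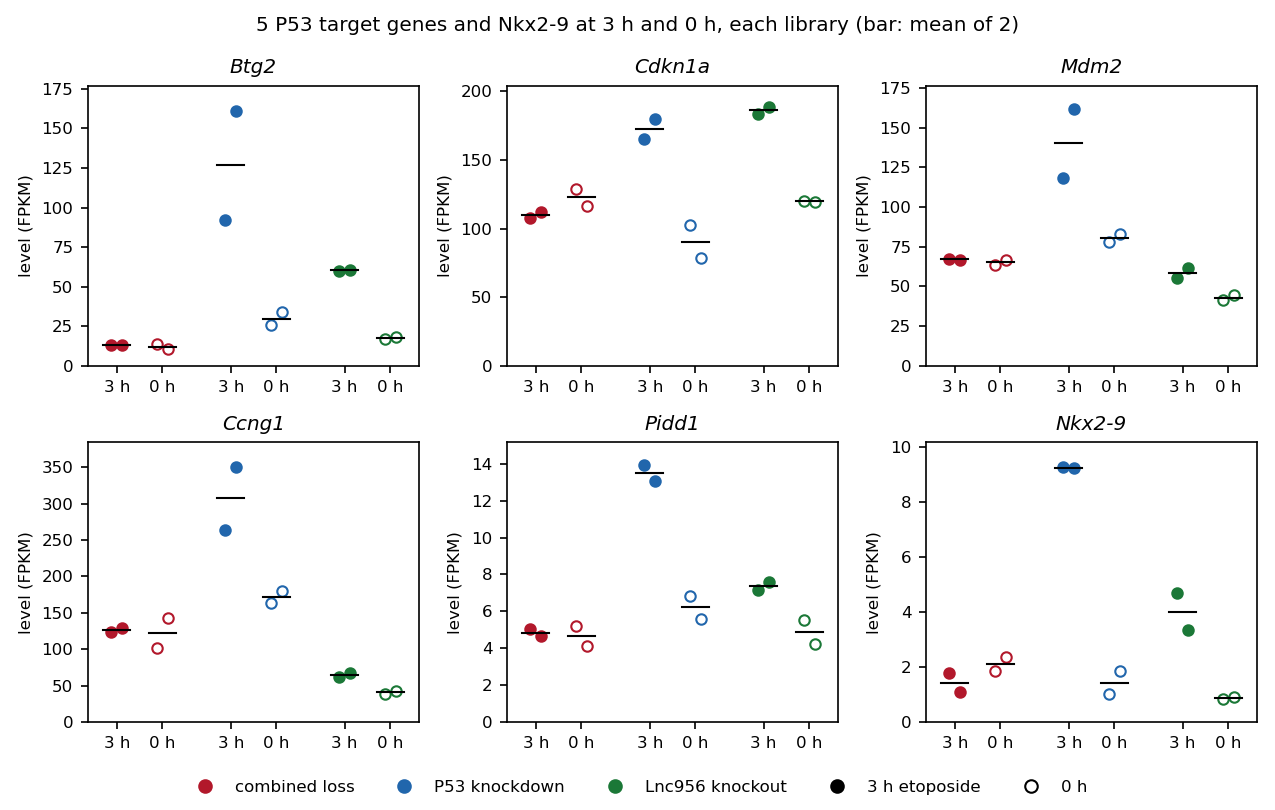
Level in FPKM of 5 P53 target genes and Nkx2-9 in each library at 3 h (filled) and 0 h (open) in combined-loss, P53 knockdown and Lnc956 knockout cells; bars are means of 2 libraries. In combined-loss cells Btg2 ran from 10.5 to 13.6 FPKM over both times. The 0 h points of Ccng1 lie further apart than its 3 h points, and the 3 h points of Nkx2-9 lie below its 0 h points. In P53 knockdown cells every 3 h point lies above every 0 h point.

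Several of these genes carry P53 at their start site in another line of the series. In WT cells treated with 10 uM etoposide, the authors' peak lists for P53 phosphorylated at serine 15 shared 4790 sites between both libraries. Of the 50 targets, 40 have a start site in the reference table (80.0%), and 25 of these had a site within 10 kb. The median change in combined-loss cells was 0.05 for the 25 with a site and 0.05 for the 15 without, and in P53 knockdown cells it was 0.39 for each. Cdkn1a had a site at chr17:29089470-29092379 with the authors' fold enrichments of 14.2 and 13.5, Mdm2 had 1 at chr10:117709388-117710729 with 6.31 and 6.26, and Ddit4l had 1 at chr3:137623364-137624287 with 9.01 and 5.36 (mm10). P53 binding in combined-loss cells was not analysed here. A promoter of each of these 3 genes, from 250 bases before to 50 after the start, is shown. These promoters, chosen after values were seen, each overlap a P53 site and hold a match to the P53 half-site consensus, set in capitals. Those of Cdkn1a and Ddit4l lie wholly within their sites, whereas the Mdm2 promoter meets its site only at the promoter's downstream end, and its match lies outside the site. They are RefSeq sequences of GRCm38.p6 on the gene's strand, at chr17:29090729-29091028 (plus strand), chr10:117710709-117711008 (minus) and chr3:137623422-137623721 (plus).
Cdkn1a: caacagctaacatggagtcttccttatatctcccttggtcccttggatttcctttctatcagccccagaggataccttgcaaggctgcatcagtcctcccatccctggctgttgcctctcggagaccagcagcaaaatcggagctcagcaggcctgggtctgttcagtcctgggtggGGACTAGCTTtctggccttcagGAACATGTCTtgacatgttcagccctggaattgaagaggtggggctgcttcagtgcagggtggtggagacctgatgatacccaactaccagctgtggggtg
Mdm2: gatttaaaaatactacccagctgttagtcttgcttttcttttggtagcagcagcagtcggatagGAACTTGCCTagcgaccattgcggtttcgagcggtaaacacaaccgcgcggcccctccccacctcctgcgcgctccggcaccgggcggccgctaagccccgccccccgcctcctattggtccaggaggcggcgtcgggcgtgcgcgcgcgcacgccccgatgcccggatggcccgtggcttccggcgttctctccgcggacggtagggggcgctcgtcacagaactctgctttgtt
Ddit4l: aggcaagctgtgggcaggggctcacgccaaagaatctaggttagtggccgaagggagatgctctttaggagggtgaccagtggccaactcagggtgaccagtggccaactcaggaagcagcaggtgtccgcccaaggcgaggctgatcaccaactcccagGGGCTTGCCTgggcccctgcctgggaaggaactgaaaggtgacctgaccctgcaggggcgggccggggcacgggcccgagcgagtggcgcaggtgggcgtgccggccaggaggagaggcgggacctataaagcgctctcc
The consensus was searched on both strands and is its own reverse complement. The first base of each match lies 73 and 51 bases before the start in Cdkn1a, 186 in Mdm2 and 90 in Ddit4l. Of 32817 promoters of this length, 2742 (8.36%) held a match. The Btg2 promoter overlapped a site in part and held no match to these letters. The Ccng1 promoter, not shown, overlapped a site with fold enrichments of 17.2 and 14.3. It held a match 185 bases before the start, though the Ccng1 difference between lines was not called. Another Cdkn1a promoter, at chr17:29093519-29093818, overlapped a P53 site and held no match.

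The genes furthest apart between the combined-loss and P53 knockdown responses included several outside the target lists. The test called 235 genes (1.65%), 126 with a higher log2 change in combined-loss cells (0.886%) and 109 with a lower one (0.766%). Nkx2-9, a homeobox gene, had 1.78 and 1.08 FPKM in combined-loss cells at 3 h, against 1.84 and 2.38 FPKM at 0 h. Nkx2-9 in P53 knockdown cells had 9.28 and 9.24 FPKM at 3 h, against 1.01 and 1.84 FPKM at 0 h, a difference of responses of -2.47 (limma adjusted p = 1.8e-05). Ddit4l, an inhibitor of mTOR signalling, had 2.08 and 3.05 FPKM at 3 h in combined-loss cells, against 2.28 and 2.66 FPKM at 0 h. Ddit4l in P53 knockdown cells had 13.3 and 12.6 FPKM at 3 h, against 2.96 and 2.94 FPKM at 0 h, and the difference was -1.79 (limma adjusted p = 3.3e-05). Tef, a PAR bZIP transcription factor, differed by -1.11 and Klhl26, a BTB-kelch gene, by -1.41. None of the libraries compared here is labelled 10 uM. Leaving out those so labelled changes only the spread estimated from all libraries, not the differences themselves. The number of calls was 120 to 146 when any combined-loss library was left out and 120 without the libraries labelled 10 uM, where 47.5% were higher, against 53.6% in the model of all libraries.

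Pluripotency genes showed no called change in combined-loss cells, while several fell in P53 knockdown cells. Of 20 naive genes none was called in combined-loss cells (median 0.07), while 5 fell in P53 knockdown cells (median -0.31), where 2.33% of all genes fell. The responses differed for 3 of the 20, all higher in combined-loss cells (0.886% of all genes). Esrrb, a nuclear receptor of naive pluripotency, had 81.6 and 73.2 FPKM at 3 h in combined-loss cells, against 72.3 and 69.7 FPKM at 0 h. Esrrb in P53 knockdown cells had 32.2 and 32.6 FPKM at 3 h, against 81.5 and 64.6 FPKM at 0 h. The difference of responses was 1.26 ± 0.16 (SE, limma adjusted p = 0.00024). Zfp42, which encodes the ES cell marker REX1, had 574 and 635 FPKM at 3 h in combined-loss cells, against 612 and 602 FPKM at 0 h, and differed by 0.94 (limma adjusted p = 0.00024). Its level in Lnc956 knockout cells was far lower, with 35.6 and 38.1 FPKM at 3 h, against 37.2 and 40.4 FPKM at 0 h. Nr5a2, another nuclear receptor of this network, differed by 1.62 (limma adjusted p = 0.00039). Nanog had 237 and 244 FPKM at 3 h in combined-loss cells, against 267 and 263 FPKM at 0 h, so its libraries did not overlap, but the change of -0.14 (95% interval from -0.35 to 0.08) did not pass. Klf4 had 44.9 and 42.7 FPKM at 3 h, against 41.2 and 36.5 FPKM at 0 h. Klf2, a Kruppel-like factor of the naive state, had the smallest p of the list, with 54.5 and 56.8 FPKM at 3 h against 37.3 and 40.1 FPKM at 0 h (log2 change 0.51, unadjusted p = 0.0046, limma adjusted p = 1).

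Of 18 general pluripotency genes, 5 fell in P53 knockdown cells (2.33% of all genes did) and none was called in combined-loss cells. The difference passed the test for 3 of the 18, all higher in combined-loss cells (0.886% of all genes). L1td1, an RNA-binding protein gene, had 170 and 178 FPKM in combined-loss cells at 3 h, against 122 and 146 FPKM at 0 h, and its response differed by 0.92 (limma adjusted p = 0.018). Jarid2, a cofactor of Polycomb repressive complex 2 (PRC2), had 55.7 and 46.2 FPKM at 3 h in combined-loss cells, against 43.0 and 48.1 FPKM at 0 h. Jarid2 in P53 knockdown cells had 28.1 and 36.5 FPKM at 3 h, against 70.4 and 68.4 FPKM at 0 h, a difference of 1.25 (limma adjusted p = 0.00024). The median over 11 PRC2 genes was 0.16 in combined-loss cells and -0.36 in P53 knockdown cells, with 2 differences called higher (Jarid2 and Aebp2, 0.886% of all genes) and 1 lower (Phf1, 0.766% of all genes). Aebp2, a further PRC2 cofactor, had 51.2 and 49.1 FPKM at 3 h in combined-loss cells, against 43.9 and 40.4 FPKM at 0 h. Tle4, a Groucho corepressor on no list, had 40.3 and 37.3 FPKM at 3 h in combined-loss cells, against 33.4 and 35.7 FPKM at 0 h. In P53 knockdown cells Tle4 had 9.15 and 8.56 FPKM at 3 h, against 27.2 and 22.7 FPKM at 0 h, so the difference of 1.55 (limma adjusted p = 1.8e-05) came with no overlap in either line.

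Of 28 G2/M genes tested, none was called in combined-loss cells (median 0.07), 6 fell in P53 knockdown cells (median -0.35, 2.33% of all genes fell), and 3 differences passed, all higher in combined-loss cells (0.886% of all genes), namely Plk1, Aurka and Ccnf. Plk1, the mitotic Polo-like kinase, had 89.9 and 89.2 FPKM at 3 h in combined-loss cells, against 91.4 and 81.7 FPKM at 0 h. Plk1 in P53 knockdown cells had 32.2 and 36.8 FPKM at 3 h, against 59.0 and 73.3 FPKM at 0 h, a difference of 0.97 (limma adjusted p = 0.0046). Aurka, a spindle kinase, differed by 1.09 (limma adjusted p = 0.013).

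Other damage responses gave no calls either. None of 35 DNA repair and damage signalling genes was called, with a median of 0.10. Xrcc6, the KU70 subunit of end joining, had the smallest p, with 35.6 and 37.3 FPKM at 3 h against 48.4 and 43.9 FPKM at 0 h (log2 change -0.33, unadjusted p = 0.0087, limma adjusted p = 1). Of 13 topoisomerase and adduct repair genes, Top2a, a target of etoposide, had 176 and 153 FPKM at 3 h, against 111 and 170 FPKM at 0 h, so its 0 h libraries differed more between replicates than the times did. The 17 NF-kB targets had a median of 0.12 and the 18 amino acid stress genes driven by ATF4 a median of 0.10, with no calls. In the NF-kB list Bcl3, an atypical IkB protein, was the gene with p below 0.05 (log2 change 0.39, unadjusted p = 0.017). Among 23 elongation and termination genes 4 had an unadjusted p below 0.05, all with higher values at 3 h (1.9% of all genes did): Cdk9, the P-TEFb kinase, at 0.31, Paf1 at 0.23, and the P-TEFb inhibitors Hexim1 at 0.25 and Larp7 at 0.24. None of these passed the adjusted threshold. The 20 fibroblast and feeder genes had a median of -0.17, and for 10 of them the 3 h libraries lay below the 0 h libraries without overlap (13.4% of all genes did), yet none had an unadjusted p below 0.05.

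Of 22 immediate early genes none was called in combined-loss cells. Fos, an AP-1 subunit, had 6.86 and 6.07 FPKM in combined-loss cells at 3 h, against 3.31 and 2.93 FPKM at 0 h. Fos in Lnc956 knockout cells had 4.91 and 5.30 FPKM at 3 h, against 0.407 and 0.825 FPKM at 0 h, where the change of 1.93 was called (limma adjusted p = 0.00034). The combined-loss change of 0.86 (95% interval from 0.33 to 1.38, unadjusted p = 0.0028) did not pass, and the difference between the lines of -1.07 did not either (limma adjusted p = 0.61). In this list 4 of the 22 had an unadjusted p below 0.05 with higher values, against 1.9% of all genes, namely Fos, Btg1, Ier2 and Atf3, and the list's median was -0.01.

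Compared with Lnc956 knockout alone, 15 genes differed in response (0.105%), 5 with a higher log2 change in combined-loss cells (0.0352%) and 10 with a lower one (0.0703%). The comparison uses the same 4 combined-loss libraries as the comparison with P53 knockdown, so the 2 results are not independent. Btg2 had 60.0 and 60.6 FPKM in Lnc956 knockout cells at 3 h, with the libraries labelled 1 uM and 10 uM in that order, against 16.8 and 17.9 FPKM at 0 h. The combined-loss response of Btg2 was lower by -1.64 (limma adjusted p = 0.0051). Cdkn1a differed by -0.79 (limma adjusted p = 0.035), with 184 and 189 FPKM in Lnc956 knockout cells at 3 h against 120 and 120 FPKM at 0 h. Tob1, an antiproliferative relative of Btg2, had 18.9 and 20.5 FPKM in combined-loss cells at 3 h, against 15.3 and 16.0 FPKM at 0 h. Tob1 in Lnc956 knockout cells had 20.0 and 19.7 FPKM at 3 h, against 8.34 and 8.59 FPKM at 0 h, and the responses differed by -0.83 (limma adjusted p = 0.018). Smad7, the inhibitory SMAD, had 27.7 and 26.8 FPKM in combined-loss cells at 3 h, against 31.5 and 29.8 FPKM at 0 h. Smad7 in Lnc956 knockout cells had 4.70 and 4.90 FPKM at 3 h, against 13.96 and 13.3 FPKM at 0 h, a difference of 1.17 (limma adjusted p = 0.00066). Epha2, an ephrin receptor, differed by 1.03 and Spry2, an inhibitor of receptor tyrosine kinase signalling, by 0.83. The small nucleolar RNAs Snora34 and Snora16a were listed at 0 in every combined-loss library, so no fold is given. In Lnc956 knockout libraries at 0 h they had 20.7 and 53.2 FPKM (Snora34) and 12.9 and 13.2 FPKM (Snora16a). Both are among the 15, and their calls rest on the Lnc956 knockout values alone. The counts and shares given here include such genes wherever they are called. Without the libraries labelled 10 uM the count was 5, of which 80.0% were higher, against 33.3% in the model of all libraries. The count ran from 6 to 21 when each library was left out in turn.

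Lif, the cytokine that the medium also supplies, had 9.26 and 8.51 FPKM in combined-loss cells at 3 h, against 13.8 and 14.7 FPKM at 0 h. The change of -0.63 (95% interval from -0.91 to -0.35, limma adjusted p = 0.62) did not pass within the line, while the difference of responses was -0.91 against P53 knockdown (limma adjusted p = 0.017) and -1.02 against Lnc956 knockout (limma adjusted p = 0.035). Lars2, the mitochondrial leucyl-tRNA synthetase, came nearest to a call of all 14223 genes, with 63.3 and 56.0 FPKM at 3 h against 180 and 158 FPKM at 0 h. Its change was -1.49 (95% interval from -2.00 to -0.97, unadjusted p = 9.2e-06, limma adjusted p = 0.13). It passed when the 4 time-course libraries labelled 10 uM, none of them at 3 h or 0 h in this line, were left out of the shared model (limma adjusted p = 0.029). In P53 knockdown cells Lars2 had 19.5 and 27.5 FPKM at 3 h, against 19.3 and 21.2 FPKM at 0 h.

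Gene length was examined because etoposide acts on topoisomerase II, which long genes need for transcription. In combined-loss cells the median log2 change was 0.02 for 4079 genes under 10 kb and 0.01 for 1545 genes of 100 kb or more, with no call in any class. Single library pairs spread around these medians, since the longest genes had 0.10 for replicate 1 minus replicate 1 and -0.10 for replicate 2 minus replicate 2, and the shortest had -0.07 and 0.12 for the same pairs. That spread is as wide as the change of the longest genes in the other line. In P53 knockdown cells the medians were 0.04 and -0.09, and 112 of the 1545 longest genes fell (7.25%, against 2.33% of all genes). In Lnc956 knockout cells they were 0.01 and 0.01.

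**Figure D3:**
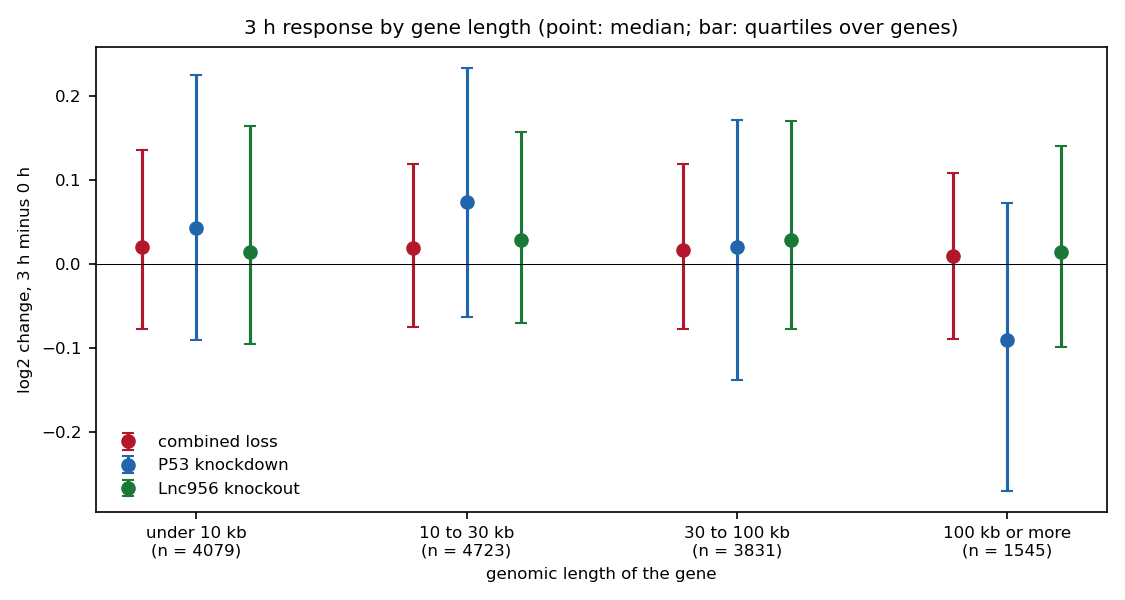
Log2 change from 0 h to 3 h in 4 classes of genomic gene length for combined-loss, P53 knockdown and Lnc956 knockout cells; points are medians and bars are quartiles over genes, not errors over libraries. Among genes of 100 kb or more the median was 0.01 in combined-loss cells and -0.09 in P53 knockdown cells.

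The 6 h and 9 h libraries place the 3 h result in time. These steps were added after the 3 h values were seen, and a step from 3 h shares the 3 h libraries with the comparison above. Between 3 h and 6 h 62 genes were called (0.436%), 52 higher at 6 h (0.366%) and 10 lower (0.0703%). Between 6 h and 9 h 1649 were called (11.6%), 606 higher at 9 h (4.26%) and 1043 lower (7.33%), with replicate 2 at 9 h labelled 10 uM. Btg2 had 30.2 and 34.7 FPKM at 6 h and 78.3 and 87.5 FPKM at 9 h, and both steps were called (log2 1.26 and 1.33, limma adjusted p = 0.0019 and 5.3e-05). Cdkn1a had 115 and 136 FPKM at 6 h, which overlapped the 0 h values, and 341 and 355 FPKM at 9 h, and only the later step was called (log2 1.47, limma adjusted p = 7e-08). Esrrb had 49.2 and 64.4 FPKM at 6 h and 31.8 and 31.1 FPKM at 9 h, the later step being called (log2 -0.82, limma adjusted p = 0.00012). Of the 50 P53 targets 2 were higher and 1 lower in the step to 6 h, and 26 were higher and 1 lower in the step to 9 h.

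**Figure D4:**
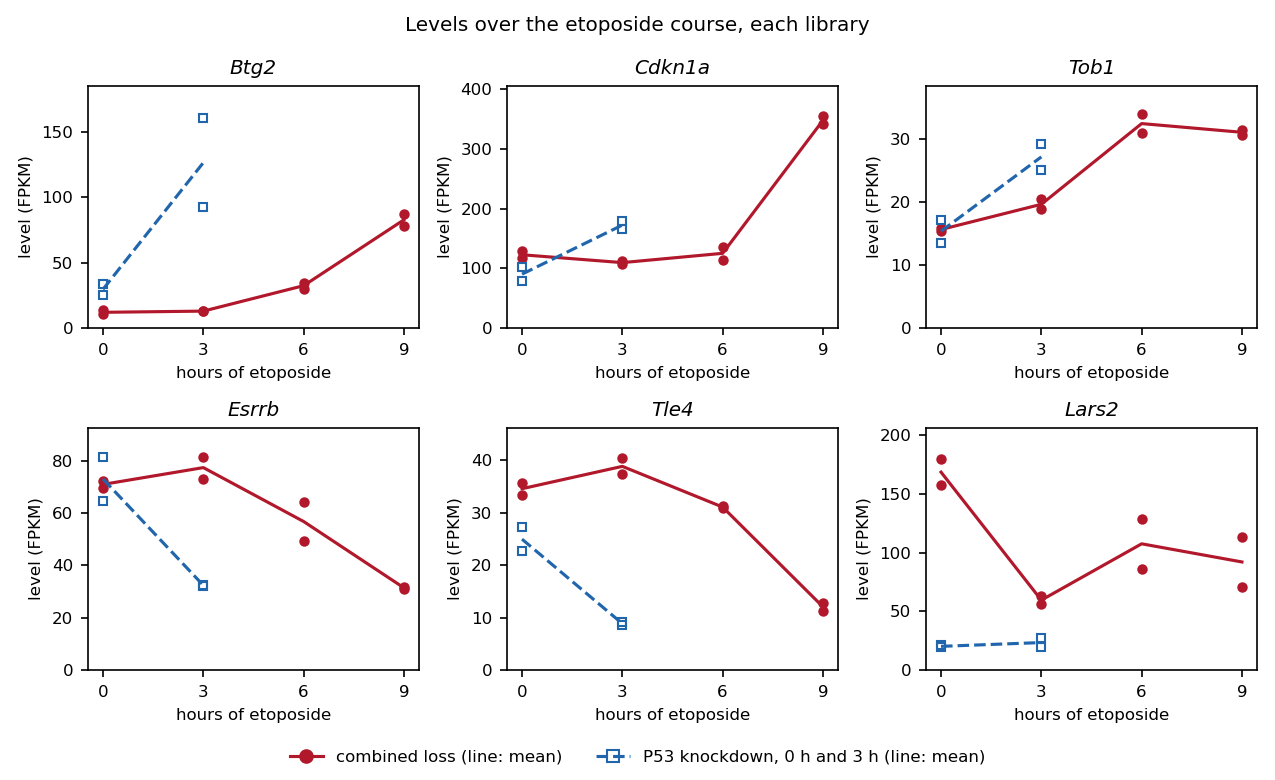
Level in FPKM of 6 genes over hours of etoposide in combined-loss cells (circles, each library, line through means) and in P53 knockdown cells at 0 h and 3 h (open squares). Btg2 and Cdkn1a stay near their 0 h level at 3 h in combined-loss cells and reach 78.3 to 87.5 and 341 to 355 FPKM at 9 h.

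The genes called at 3 h in Lnc956 knockout and P53 knockdown cells, which share no library with the combined-loss steps, were followed through that course. Of the 52 genes higher at 6 h than at 3 h in combined-loss cells, 18 (34.6%) were among the 49 that rose in Lnc956 knockout cells, or 36.7% of the 49 (0.345% of all genes rose in that line). Of the same 52 genes 25 (48.1%) were among the 406 that rose in P53 knockdown cells, or 6.16% of the 406 (2.85% of all genes rose in that line). The median log2 change of the 49 genes in combined-loss cells against 0 h was 0.11 at 3 h, 0.65 at 6 h and 0.79 at 9 h, and their median at 3 h was 0.79 in P53 knockdown cells. The 406 genes had medians of 0.00, 0.14 and 0.38 at the same times, against 0.66 at 3 h in P53 knockdown cells. The 331 genes that fell in P53 knockdown cells had medians of 0.04, -0.09 and -0.57 in combined-loss cells. The 15 genes that fell in Lnc956 knockout cells had medians of 0.00, -0.04 and -0.48, and 1 of them was called lower in the step to 6 h (0.0703% of all genes). At 3 h 6 of these 15 changes were positive and 5 negative. The rest were exactly 0 and set the 3 h median. A gene listed at 0 in every combined-loss library also gives a change of exactly 0. Over all genes the medians were 0.02, 0.03 and 0.06. Tob1 was among the genes higher at 6 h, with 31.0 and 33.9 FPKM at 6 h and a called step of 0.70 (limma adjusted p = 0.0025).

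**Figure D5:**
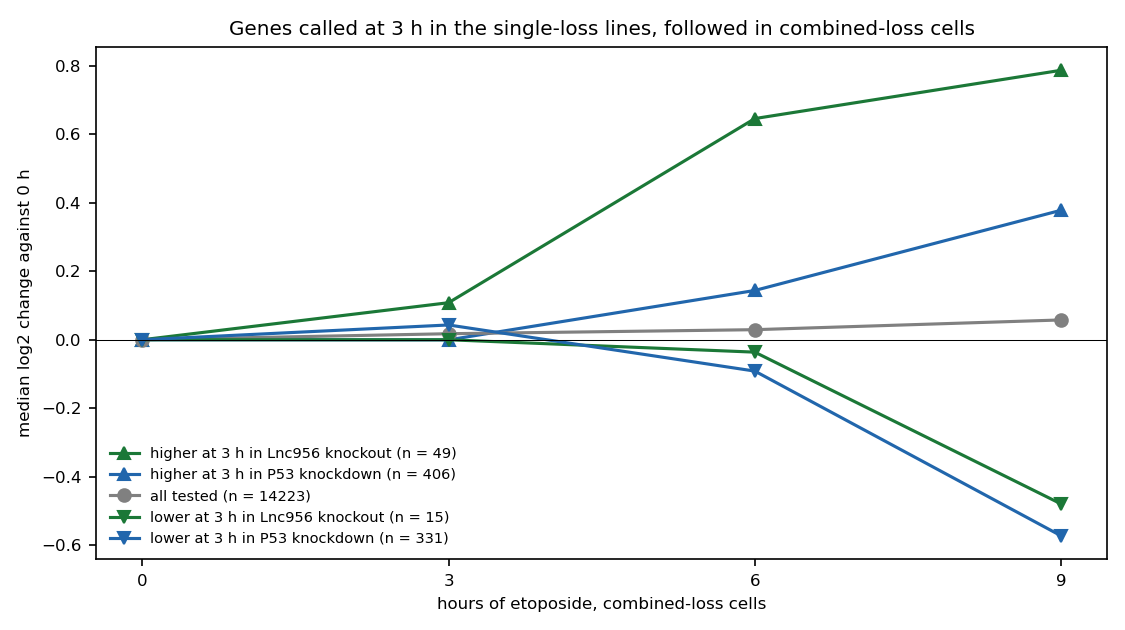
Median log2 change against 0 h in combined-loss cells at 3 h, 6 h and 9 h of etoposide for genes called at 3 h in Lnc956 knockout or P53 knockdown cells and for all genes tested. At 3 h every median lies between 0.00 and 0.11, and at 9 h they run from -0.57 to 0.79. The 3 h median of the 15 genes lower in Lnc956 knockout cells is set by changes of exactly 0.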

How the data were processed

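RNA-seq values were FPKM as the authors deposited them, with a column for each library. The submitters' processing notes name CASAVA 2.19, TopHat2 2.0.8, Bowtie2 2.1.0, Cufflinks and Cuffdiff (2.1.1), MACS2 (version 2.2.7.1) and the mm10 build, without roles. No source used here gives the gene annotation or the scaling between libraries. FPKM depends on that scaling and gives no read counts, so no counting error was computed. The authors' deposited peak lists give for each peak the fold enrichment over control as a ratio, with the -log10 p and -log10 q. P53 peaks were called per library, and a site is an overlap of at least 1 base between both treated WT libraries.

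Of 24314 rows, 14223 genes reached 1 FPKM in at least 2 of 28 labelled time-course libraries and were tested as log2(FPKM + 1) with limma 3.58.1 (R 4.3.3), 14 groups in 1 model with a variance trend and 14 residual degrees of freedom. P-values were adjusted by Benjamini-Hochberg, with a threshold of 0.05. A difference of responses was an interaction contrast in that model. The combined-loss columns carry a name that differs from the sample titles and were matched by genotype as the only line left, and 4 further columns matched none of the labelled samples and were left out. The members, the 39 gene lists (650 genes tested) and the tests were chosen with earlier results of these data known. Named genes were up to 15 per direction and comparison past the threshold with a mean of 5 FPKM and no overlap between times in combined-loss cells, up to 6 per list by smallest p, and a fixed set of P53, pluripotency and topoisomerase genes; others, such as Btg2, Nkx2-9, Ddit4l, Tle4, Lars2 and the 3 promoters, were named after their values were seen. Gene positions came from a RefSeq table of GRCm38.p6, which gives a length for 99.7% of genes tested. A start site was known for 79.3% of them, under the 80% needed, so a split of all genes by P53 or KLF4 sites is void and not reported. One gene called in a comparison is not reported here. The analysis was tested on simulated data.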

Additional observations from a re-analysis of the deposited data

Results flagged for a closer look

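The responses of combined-loss and P53 knockdown cells to 3 h of etoposide differed by an interaction test for 235 genes, and those of combined-loss and Lnc956 knockout cells for 15 genes (limma, adjusted p below 0.05). All values here are log2 differences of the 3 h change, combined loss minus the other line.

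Against P53 knockdown, P53 targets and other genes had lower changes in combined-loss cells: -2.47 for Nkx2-9, -1.91 for Btg2, -1.79 for Ddit4l, -1.41 for Klhl26, -1.11 for Tef, -1.10 for Cdkn1a, -1.02 for Trp73, -0.97 for Pidd1, -0.84 for Phf1, -0.83 for Plk2, -0.76 for Tnfrsf10b, -0.73 for Mdm2 and -0.70 for Ppm1d. Pluripotency, PRC2, G2/M and other genes had higher changes in combined-loss cells: 1.62 for Nr5a2, 1.55 for Tle4, 1.26 for Esrrb, 1.25 for Jarid2, 1.11 for Sall4, 1.09 for Aurka, 1.04 for Mycn, 0.97 for Plk1, 0.94 for Zfp42, 0.92 for L1td1, 0.71 for Aebp2 and 0.70 for Ccnf.

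Against Lnc956 knockout, the lower changes among the genes named were -1.89 for Lars2, -1.78 for Nkx2-9, -1.64 for Btg2, -1.20 for Sp6, -1.17 for Ddit4l, -1.06 for Mylip, -1.02 for Lif, -0.83 for Tob1 and -0.79 for Cdkn1a. The higher changes were 1.17 for Smad7, 1.03 for Epha2 and 0.83 for Spry2. Snora34 and Snora16a were called too, but both were listed at 0 in every combined-loss library, so no change is given for them. In the model without the libraries labelled 10 uM, most of the 15 calls were lost, among them most of the lower ones. That model leaves replicate 1 alone at 3 h in Lnc956 knockout cells.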

How the results depend on the processing

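No gene was called between 3 h and 0 h in combined-loss cells under another pseudocount, a filter within the line, quantile or median scaling, the line's own libraries, or no variance trend. With no filter on low values 4 genes were called (1 higher, 3 lower), and 1 (Lars2) was called without the libraries labelled 10 uM and with a replicate block. Leaving out each library gave 0 to 2. The difference from P53 knockdown was called for 120 genes without the libraries labelled 10 uM and for 120 to 296 when each library was left out, and the higher share was 53.6%, 51.0% with quantile scaling, 61.9% with median scaling, 47.1% with the other pseudocount, 47.5% without the libraries labelled 10 uM and 38.9% to 58.2% when each library was left out. The difference from Lnc956 knockout was called for 29 genes with no filter, 5 without the libraries labelled 10 uM and 6 to 21 when each library was left out, with 33.3% higher, 43.8% with quantile scaling, 45.5% with median scaling, 80.0% without the libraries labelled 10 uM and 28.6% to 63.6% when each library was left out. Neither split between higher and lower kept its majority in every alternative. Where 1 library was left out, the lone one was assumed to vary like the others. The libraries labelled 10 uM enter the difference from P53 knockdown only through the spread estimated from all libraries. The median of the P53 targets was -0.018 without replicate 2 at 0 h and ran from -0.018 to 0.025 when each library was left out, against 0.03.

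The labels do not say that a replicate number marks a shared culture, and deviations of same-numbered libraries correlated at -0.23 in combined-loss, 0.51 in P53 knockdown and 0.06 in Lnc956 knockout cells, so the numbers were not taken as pairs. With a replicate block the 3 comparisons called 1, 195 and 13 genes. With crossed numbers in combined-loss cells, chosen after seeing the data, they called 1, 328 and 15. Over 280 named genes the combined-loss change was called in an alternative for 1 only, Lars2, so a call in reverse could hardly occur. Among the 280, 54 changed sign while not called. Of 62 named differences from P53 knockdown 27 lost their call in some alternative, and of 14 from Lnc956 knockout 9 did. With 2 libraries per group, small changes cannot be detected and larger ones can be missed. The split of all genes by binding sites was run, but it is void and not reported, because too few of the genes tested have a known start site.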

Other observations

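The combined-loss columns hold many values written with fewer digits than the rest. Of values of at least 1 FPKM, 7.11% and 8.02% in the 3 h libraries and 6.66% and 7.14% in the 0 h libraries have 3 significant digits or fewer. The share was 1.70% and 2.16% at 3 h and 0.524% and 0.666% at 0 h in P53 knockdown cells, and 0.636% and 0.919% at 3 h and 0.0889% and 0.0707% at 0 h in Lnc956 knockout cells. Of the genes tested, 2847 (20.0%) had such a value in at least 1 of the 4 combined-loss libraries. Their change had a median of 0.03 and an SD of 0.174, against 0.02 and 0.178 for the 11376 other genes. The difference from P53 knockdown was called for 52 of the 2847 (1.83%) and 183 of the others (1.61%). No source used here gives the origin of the shorter values, which was not tested.

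The genes below were chosen after their values were seen. Single libraries stood apart for Dynlt1c at 3 h and for Amd1 at 9 h. Dynlt1c, a dynein light chain gene, had 301 and 176 FPKM in combined-loss cells at 3 h, against 358 and 343 FPKM at 0 h. Among 17 genes whose change reached 1 on the log2 scale in either direction, Amd1, an enzyme of polyamine synthesis, had the largest. Its change of 3.37, the highest of all genes tested, was not called. Both Amd1 libraries at 3 h, with 13.4 and 6.77 FPKM, lay above both at 0 h, with 0.0235 and 0.0240 FPKM. It also had 14.6 and 0.0239 FPKM at 9 h.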
